A study of Mus musculus with 8 samples.

Results

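Immediate early genes and the inducible Hsp70 genes were followed across 8 Affymetrix expression arrays of mouse spleen and lymph node. The set was all probe sets whose single gene symbol in the platform annotation was Fos, Fosb, Jun, Junb, Egr1, Ier2, Dusp1, Atf3, Hspa1a or Hspa1b. This gave 13 probe sets for the 10 genes, of 45037 probe sets (controls left out) that carry 18193 single gene symbols. Jun had 2 probe sets, Hspa1b had 3 and the other 8 genes had 1 each. The arrays fell into 4 groups of 2: Aire-knockout spleen, Aire-wild-type spleen, Aire-knockout lymph node and Aire-wild-type lymph node. The knockout concerned Aire, the autoimmune regulator, and the series as a whole addressed cells that express Aire outside the thymus. The 2 arrays of a group are lettered A and B. The labels explain neither the letters nor the allele, and they give no strain, age, sex, cell type, sorting step or pooling of animals. Total RNA was labelled with biotin, and no treatment is named for any group.

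Signals below are the deposited MAS5 intensities, linear values that summarise the probes of a set, after each array was multiplied by a factor between 0.903 and 1.10 to give all arrays the same median. Differences are on the log2 scale with their SE from limma, a linear model with a moderated variance. The fit took in 26480 probe sets, those with a signal over 59.0, the median of all signals, on 2 or more arrays. All 13 probe sets passed that filter, and each did so on all 8 arrays. Calls were made where p, adjusted by Benjamini-Hochberg over all of these, was below 0.05. A signal is a summed property of the sample, so fewer cells of a type and less RNA per cell cannot be told apart. The p-values measure the spread between these arrays, which may be partly technical. The fit treated the 8 arrays as independent. If arrays were paired across tissues, SEs, intervals and p-values of the tissue-averaged knockout differences may be too small.

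Marker levels differed between the 2 arrays of a group. Aire had signals between 791 and 2376 on the 4 knockout arrays, against 3052 to 5204 on the 4 wild-type arrays; the place of its probe set relative to the deletion is not known. Xist, the RNA that silences one X chromosome in females, was at 14.6 and 23.1 on the knockout B arrays of spleen and lymph node and between 3565 and 7624 on the 6 other arrays. The Y-linked gene Eif2s3y was at 21.2 and 3.80 on the wild-type A arrays and between 521 and 1988 on the others. In each of the 4 groups Xist was lower and Eif2s3y higher on array B than on array A. The knockout A and wild-type B arrays had high signals of both. Low Xist was thus confined to knockout arrays and low Eif2s3y to wild-type arrays, so these sex-linked transcripts were not balanced between genotypes. The part of this in the knockout comparisons was not tested. The summed signal of 10 macrophage markers was 20529 and 2208 on arrays A and B of knockout spleen, 2823 and 948 in wild-type spleen, 15734 and 6466 in knockout lymph node, and 6951 and 1502 in wild-type lymph node. It too was higher on A than on B in every group. Neutrophil and monocyte markers summed to 8129 on array A of knockout spleen and to between 67.9 and 432 on the 7 others. The summed signal of 8 dendritic cell markers, the MHC class II gene H2-Aa among them, ranged from 35672 to 48301 over the 8 arrays.

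Immediate early genes are transcribed within minutes of a stimulus, without new protein synthesis, when kinases activate factors already bound at their promoters. Fos, Fosb, Jun and Junb encode subunits of the AP-1 transcription factor, Egr1 a zinc finger factor, Atf3 a stress-induced bZIP factor, Ier2 a small nuclear protein and Dusp1 a phosphatase that switches off MAP kinases. Hspa1a and Hspa1b encode the inducible Hsp70 chaperone and are switched on by the heat shock factor Hsf1 when proteins misfold. Both groups of genes are known to respond to cell activation and also to the dissociation of tissue into single cells.

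Promoter sequences are shown because the members respond through short elements next to their start sites, and because the 2 Hsp70 genes are near copies. RefSeq promoters (GRCm38.p6) were matched by symbol for 8 of the 10 genes, and the bases before the start were read 5′ to 3′ on the gene's strand. For the Hsp70 pair all 250 bases before the start follow, with the capitals marking a pair of inverted heat shock factor half-sites, GAANNTTC.
Hspa1a, chr17:34972157-34972406, minus strand: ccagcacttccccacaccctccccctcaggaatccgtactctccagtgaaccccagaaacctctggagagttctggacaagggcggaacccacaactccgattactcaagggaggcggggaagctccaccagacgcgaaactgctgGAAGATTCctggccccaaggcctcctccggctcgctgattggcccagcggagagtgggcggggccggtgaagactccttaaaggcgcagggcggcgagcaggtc
Hspa1b, chr17:34959239-34959488, minus strand: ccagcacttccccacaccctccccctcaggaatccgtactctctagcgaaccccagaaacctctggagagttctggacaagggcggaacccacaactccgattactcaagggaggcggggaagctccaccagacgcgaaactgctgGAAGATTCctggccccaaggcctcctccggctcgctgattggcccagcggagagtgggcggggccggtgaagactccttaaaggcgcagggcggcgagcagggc
The windows differ at 3 of 250 bases, C44T, T47C and T249G, counted from 1 at the 5′ end with the Hspa1a base first, so 98.8% of bases are identical. The transcripts of the pair are also known as near copies, so a probe for one may bind the other, and the Hspa1a and Hspa1b signals are not independent measurements.

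Among the immediate early genes searched, Fos, Dusp1 and Atf3 held the core of a cyclic AMP response element, TGACGT on either strand, within 250 bases of the start. It is given in capitals below in the bases next to the start, and in Atf3 it reads ACGTCA because it lies on the opposite strand. Dusp1 also held the full element TGACGTCA, which overlaps the core on both strands, and 1 further core match at bases 191 to 186 before the start.
Fos, chr12:85473790-85473889, plus strand: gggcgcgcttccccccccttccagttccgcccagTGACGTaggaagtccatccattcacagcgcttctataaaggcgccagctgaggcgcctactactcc
Dusp1, chr17:26508473-26508622, minus strand: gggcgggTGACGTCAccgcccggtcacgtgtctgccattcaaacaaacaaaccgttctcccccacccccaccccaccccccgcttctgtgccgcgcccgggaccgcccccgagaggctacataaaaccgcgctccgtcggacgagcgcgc
Atf3, chr1:191183334-191183433, minus strand: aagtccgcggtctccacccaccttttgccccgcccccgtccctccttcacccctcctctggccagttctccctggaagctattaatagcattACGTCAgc
Fosb, chr7:19310046-19310145, minus strand, shown for comparison with Fos: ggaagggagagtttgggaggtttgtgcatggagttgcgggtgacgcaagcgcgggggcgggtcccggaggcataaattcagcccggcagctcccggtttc
Of 32851 RefSeq promoter windows of the same length, 6.47% held TGACGT, 1.55% held TGACGTCA and 6.69% held GAANNTTC, both strands searched. GAANNTTC was found in 3 of the 8 members, Hspa1a, Hspa1b and Jun. The AP-1 site TGANTCA, found in 6.75% of all windows, matched none of the 8 within these windows. The CArG box, the serum response element core, found in 1.47%, also matched none there. Bases further from the start, and the promoters of Egr1 and Ier2, were not searched. These matches describe letters in the windows and are no evidence of binding.

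None of the 13 probe sets was called in any comparison, and the members did not move as 1 block. The Hsp70 probe sets had the widest range, between 6.49-fold and 9.999-fold from the lowest to the highest array, and that range lay between arrays A and B of the same group and between tissues. Fos and Fosb varied little, and both were lowest on the 2 knockout B arrays. Atf3 had lower signals in knockout than in wild-type spleen and higher signals in spleen than in lymph node.

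**Figure D1:**
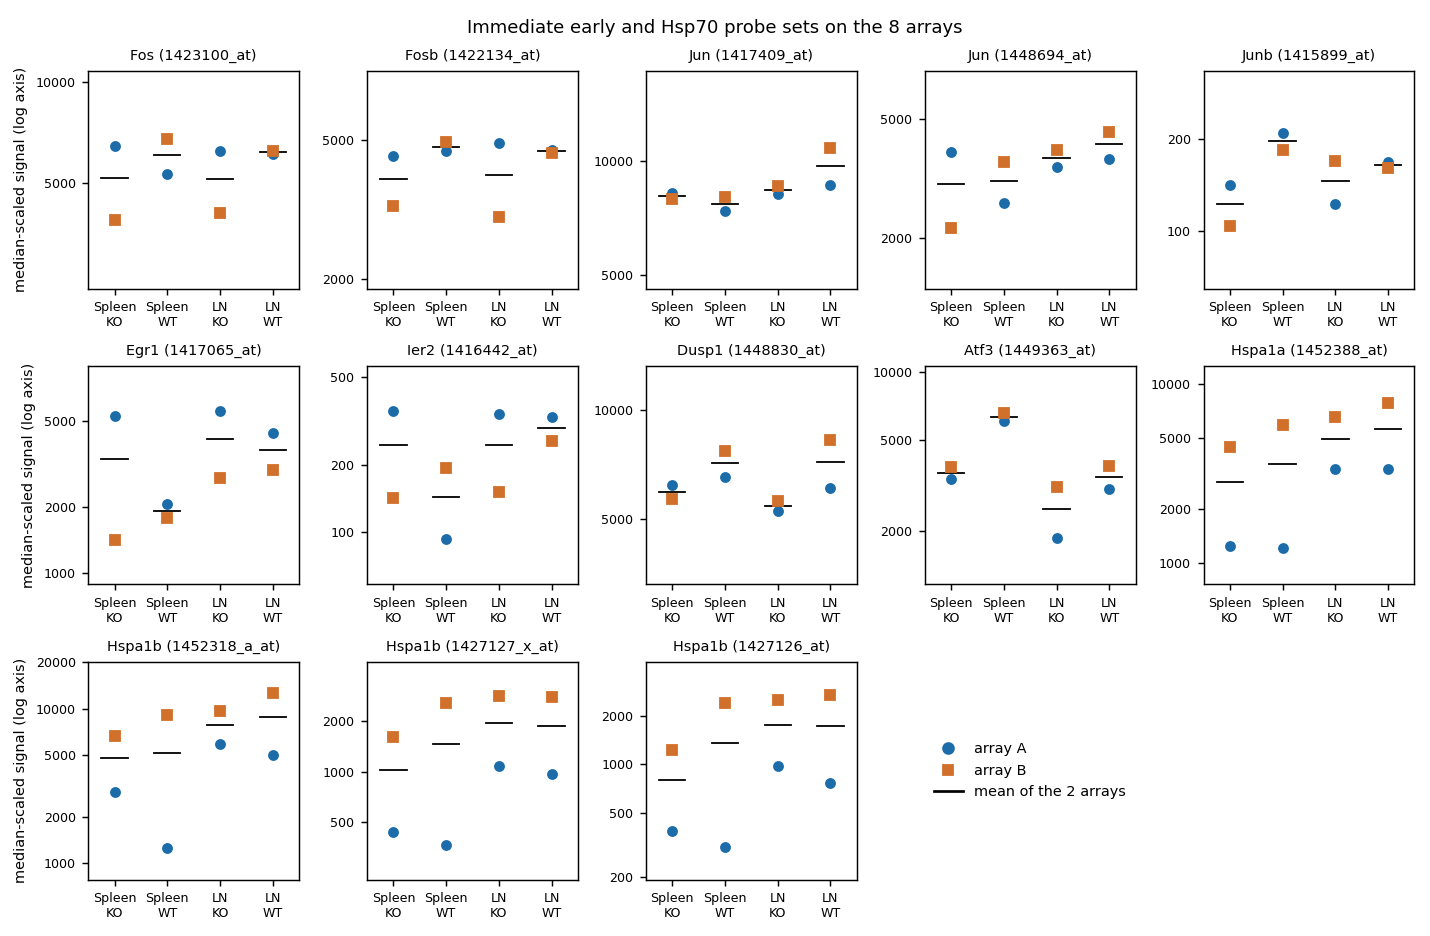
Median-scaled signal (log axis) of each of the 13 probe sets in Aire-knockout (KO) and Aire-wild-type (WT) spleen and lymph node (LN); circles are array A, squares array B and bars the mean of the 2 arrays. The squares lie above the circles in all 4 groups for Atf3, Hspa1a and Hspa1b and below them in all 4 for Egr1.

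Fos, the prototype immediate early gene, had signals of 6457 and 3880.1 on arrays A and B of knockout spleen, against 5327 and 6741 in wild-type spleen. Knockout lymph node had 6231 and 4063, against 6107 and 6219.5 in wild-type lymph node. The A arrays of the knockout groups lay within or next to the wild-type values and the B arrays below them, so the genotypes overlapped in both tissues. The knockout minus wild-type difference averaged over tissues was -0.28 ± 0.29 (SE, limma adjusted p = 0.885), with an interval from -0.96 to 0.41. It was -0.61 without both knockout A arrays and 0.062 without both knockout B arrays.

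Fosb, a close relative that pairs with Jun proteins in the same way, had signals of 4501 and 3236.5 in knockout spleen, against 4632 and 4921 in wild-type spleen. In knockout lymph node it had 4897 and 3002, against 4681 and 4579 in wild-type lymph node. The genotypes did not overlap in spleen, where knockout was lower, and overlapped in lymph node. The difference was -0.32 ± 0.38 in spleen (adjusted p = 0.873) and -0.30 ± 0.27 averaged over tissues (adjusted p = 0.863). The averaged value was -0.59 without both knockout A arrays and -0.0019 without both knockout B arrays.

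Of the 78 pairs of member probe sets, Fos and Fosb had the most similar profiles. Their centred log2 signals differed by a root mean square of 0.10 over the 8 arrays. Both knockout B arrays lay below the 6 other arrays for these 2 genes and for no other member. Among all probe sets tested this held for 3.87%. It also held for 4 of the 26 other early response genes tested below, Nr4a1, Btg2, Klf4 and Dusp5. Of the 16 other heat shock and chaperone genes tested, it held for 1, Hspa5. These 2 arrays are also those with Xist near the floor of 9.58, and the part of sample composition in the low values was not tested.

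Jun, the main partner of Fos in AP-1, spanned a 1.46-fold range on the first of its probe sets, taken in the order of their IDs. It had 8193 and 7911 in knockout spleen, against 7368 and 8021 in wild-type spleen, and 8157 and 8549 in knockout lymph node, against 8609.9 and 10778 in wild-type lymph node. Only in lymph node did the genotypes not overlap, by a narrow margin, with a difference of -0.21 ± 0.32 (limma adjusted p = 1). The averaged difference was -0.07 ± 0.23 (adjusted p = 0.974), and its sign turned with quantile normalization (0.054) and without median scaling (0.0047). The second Jun probe set spanned a 2.09-fold range, with a low value of 2168 on array B of knockout spleen. Its averaged difference was -0.11 ± 0.29 (adjusted p = 0.964), and its sign turned with quantile normalization, to 0.016.

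Junb, an AP-1 subunit that restrains Jun activity in some settings, had 141 and 104 in knockout spleen, against 210.1 and 185 in wild-type spleen. In lymph node it had 123 and 169.8 in knockout, against 169.0 and 161 in wild-type. Its knockout spleen arrays lay below both wild-type spleen arrays, and its lymph node groups overlapped. The difference was -0.70 ± 0.35 in spleen (limma adjusted p = 0.677) and -0.45 ± 0.25 averaged over tissues (adjusted p = 0.759).

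Egr1 and Ier2 had the widest ranges of the immediate early genes, 3.92-fold and 3.80-fold over the 8 arrays. Egr1 had signals of 5256 and 1418 on arrays A and B of knockout spleen, against 2068 and 1793 in wild-type spleen. Its signals were 5553 and 2711 in knockout lymph node, against 4378 and 2979 in wild-type lymph node. Array A exceeded array B in every group, and the B signal was 0.270 times the A signal in knockout spleen and 0.867 times in wild-type spleen. Of all tested probe sets 6.84% had B below A in every group. The summed signal of the macrophage markers given above followed the same order of A and B in every group. Taken singly, 4 of the 9 tested macrophage markers did so. Their part in the Egr1 values was not tested.

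The genotypes overlapped in both tissues for Egr1. In spleen knockout minus wild-type came to 0.50 ± 0.67 (limma adjusted p = 0.888) and 0.30 ± 0.47 averaged over tissues (adjusted p = 0.939). The direction rested on the knockout A arrays, since the averaged value was -0.43 without both of them and 1.03 without both knockout B arrays.

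Ier2, another growth factor-inducible gene, had 352 and 142 in knockout spleen, against 92.5 and 194 in wild-type spleen. Knockout lymph node had 343 and 152, against 331 and 259 in wild-type lymph node. The genotypes overlapped in both tissues, and wild-type spleen was the group in which B exceeded A. The difference was 0.74 ± 0.63 in spleen (adjusted p = 0.820) and 0.19 ± 0.45 averaged over tissues (adjusted p = 0.961). The spleen value was 0.086 without array A and 1.39 without array B of knockout spleen. Without both knockout A arrays the averaged value was -0.43, and without both knockout B arrays it was 0.81. Among the members Ier2 had the largest difference between tissues in the knockout effect, 1.10 ± 0.90, with an interval from -1.02 to 3.22 and an adjusted p of 0.9998.

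Dusp1, whose product dephosphorylates p38, Jnk and Erk kinases, had 6205.5 and 5679 in knockout spleen, against 6526 and 7728 in wild-type spleen. In lymph node it had 5268 and 5586 in knockout, against 6091.5 and 8283 in wild-type. It was the member whose knockout arrays lay below the wild-type arrays in both tissues, 1 of 13 probe sets, where 5.0% of all tested probe sets did so. Without median scaling and with quantile normalization Atf3 did so as well, 2 of 13, against 3.87% and 4.35% of all probe sets. The differences were small: -0.26 ± 0.34 in spleen (limma adjusted p = 0.887), -0.39 ± 0.34 in lymph node (adjusted p = 1; -0.61 without array A and -0.17 without array B of wild-type lymph node) and -0.32 ± 0.24 averaged (adjusted p = 0.816, interval from -0.88 to 0.24).

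Atf3, which is induced by stress and by Toll-like receptor signals and dampens cytokine genes in macrophages, had 3366 and 3823.5 in knockout spleen, against 6065 and 6610.5 in wild-type spleen. In lymph node it had 1867 and 3130.4 in knockout, against 3052 and 3854 in wild-type. Knockout spleen lay below wild-type spleen with no overlap, and in lymph node 1 knockout array lay within the wild-type range. That overlap came with median scaling: the deposited signals in lymph node were 2039 and 3148 in knockout, against 3380 and 3622 in wild-type, and quantile normalization also left no overlap. The difference was -0.82 ± 0.38 in spleen (adjusted p = 0.653), a 1.77-fold lower signal, and -0.50 ± 0.38 in lymph node (adjusted p = 1), the second moving to -0.13 without array A and -0.88 without array B of knockout lymph node. Averaged over tissues it was -0.66 ± 0.27, with an interval from -1.30 to -0.03 and an unadjusted p of 0.0427, the smallest of the members. The adjusted p was 0.686, so Atf3 was not called, and the fit took spleen and lymph node arrays as independent.

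Inducible Hsp70 differed far more between arrays A and B of a group than between genotypes. Hspa1a had 1251 and 4440.3 on arrays A and B of knockout spleen, against 1218.5 and 5943 in wild-type spleen. Knockout lymph node had 3372 and 6531, against 3343 and 7903 in wild-type lymph node. Array A of knockout spleen was close to array A of wild-type spleen, and the B arrays stood above the A arrays in every group.

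Hspa1b had 2881 and 6692 on arrays A and B of knockout spleen on the probe set whose ID ends in _a_at, against 1255 and 9044 in wild-type spleen. In lymph node it had 5944 and 9669 in knockout, against 4989 and 12549 in wild-type. The wild-type spleen pair spanned 7.21-fold, wider than the other groups. The probe sets ending in _x_at and in plain _at had the same order of A and B in all 4 groups, over total ranges of 7.78-fold and 8.82-fold.

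Averaged over the 4 groups, B exceeded A by 1.58 for Hspa1a, a 2.98-fold difference, and by 1.52, 1.90 and 1.96 for the 3 Hspa1b probe sets. Of all tested probe sets 12.5% had B above A in all 4 groups, and 0.442% did so with a mean difference at least as large as the smallest of these 4. The pattern was noticed in the data, so these shares describe it and are no test. Eif2s3y was also higher and Xist lower on B than on A in every group. The summed signals of macrophage, plasma cell, neutrophil and monocyte, and platelet markers and of cell cycle genes were lower on B in every group. That of dendritic cell markers was higher on B in every group. The part of any of these in the Hsp70 values was not tested.

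**Figure D2:**
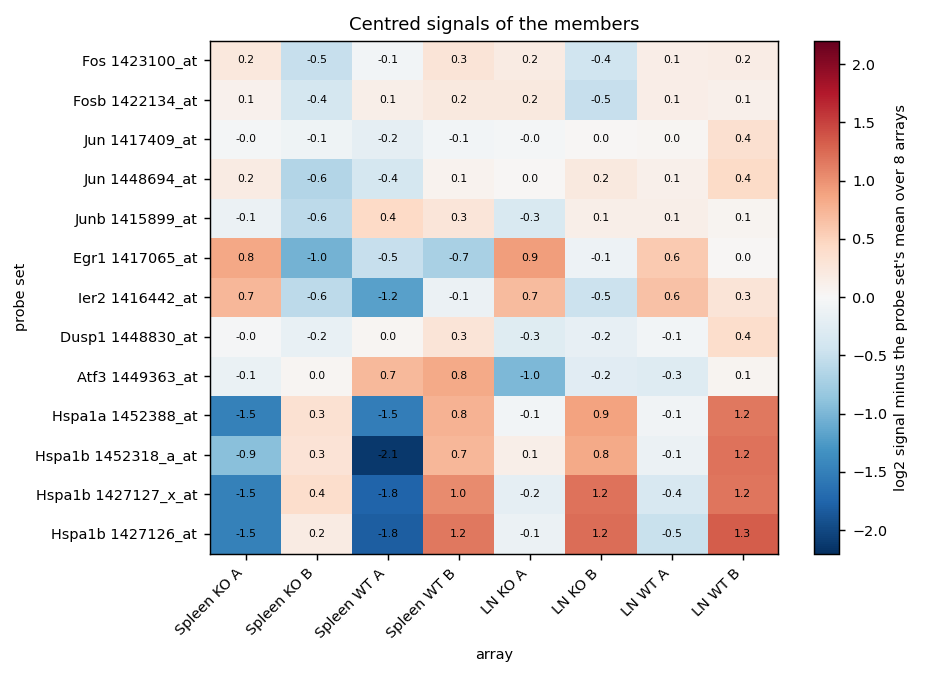
Log2 signal of each probe set minus its mean over the 8 arrays, with arrays of Aire-knockout (KO) and Aire-wild-type (WT) spleen and lymph node (LN) in columns and probe sets in rows. The 4 Hsp70 rows are lowest on the A arrays of spleen, and the rows of Fos and Fosb are lowest on both KO B arrays.

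Against this spread the genotypes overlapped in both tissues for all 4 Hsp70 probe sets. The averaged knockout minus wild-type difference was -0.16 ± 0.66 for Hspa1a (limma adjusted p = 0.979). For Hspa1b it was 0.16 ± 0.68 (_a_at, adjusted p = 0.980), -0.05 ± 0.78 (_x_at, adjusted p = 0.996) and -0.10 ± 0.80 (_at, adjusted p = 0.991). The interval for Hspa1a ran from -1.72 to 1.40, so a 2-fold difference in either direction lay inside it. Leaving out the A or the B arrays of the knockout groups turned the sign for Hspa1a, to 0.53 without both A arrays and -0.86 without both B arrays.

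In the knockout comparison as a whole, 0 of the 13 probe sets were called in spleen, in lymph node or averaged over tissues. Over all probe sets tested 0.00755% were called in spleen and 0.0113% both in lymph node and averaged. At an unadjusted p under 0.05 the members gave 0 in spleen, 0 in lymph node and 1 averaged, Atf3, where 7.90%, 2.94% and 7.18% of all probe sets did. Differences ranged from -0.82 to 0.74 in spleen and from -0.50 to 0.13 in lymph node. Their medians were -0.19 in both, beside -0.11 and -0.04 over all probe sets tested. Knockout arrays lay below wild-type arrays without overlap for 4 of 13 probe sets in spleen, those of Fosb, Junb, Dusp1 and Atf3, where 23.5% of all probe sets did, and for 2 of 13 in lymph node, where 15.7% did. None lay above without overlap in either tissue, against 13.0% and 14.0% of all probe sets. The difference between tissues in the knockout effect was called for no member, nor for any probe set tested by limma (0 of 26480), of which 944 (3.56%) had an unadjusted p under 0.05.

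**Figure D3:**
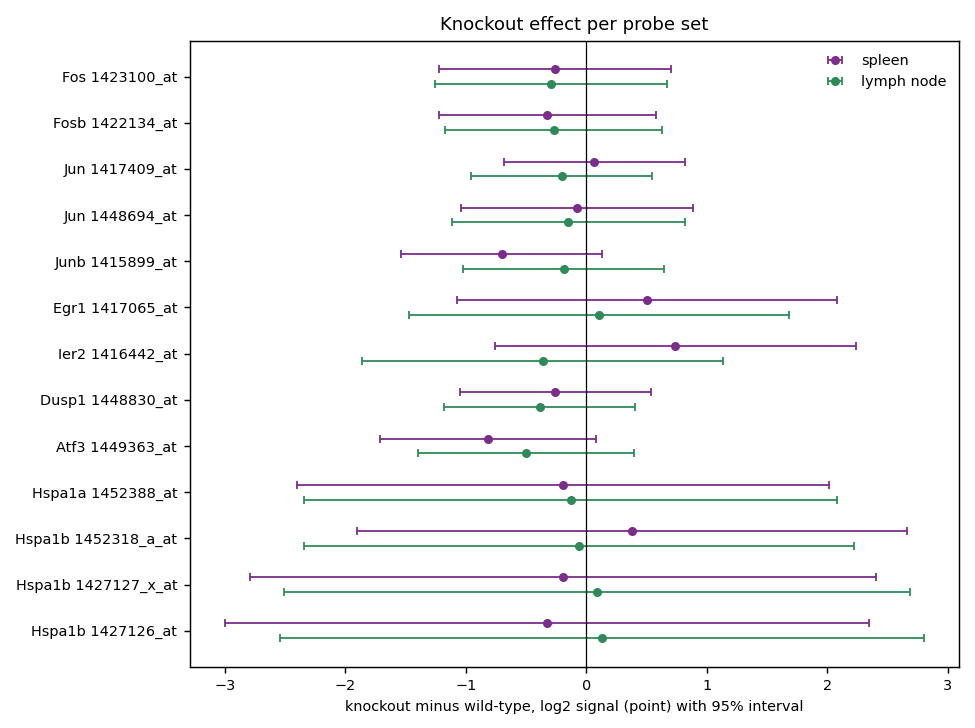
Knockout minus wild-type difference in log2 signal for each of the 13 probe sets, in spleen and in lymph node, with 95% intervals from limma. All 26 intervals include 0, and those of the Hsp70 probe sets are the widest.

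With the 4 groups ordered by mean signal, overlap was read between neighbours. For Fos, Fosb, Egr1, Ier2, the Hsp70 probe sets and the second Jun probe set no neighbouring groups stood apart. For Atf3 wild-type spleen stood above knockout spleen, which overlapped wild-type lymph node; the lowest was knockout lymph node. For Dusp1 wild-type spleen stood above knockout spleen, which stood above knockout lymph node, and wild-type lymph node overlapped both spleen groups. On the first Jun probe set wild-type lymph node stood above the other 3 groups, and for Junb wild-type spleen stood above the other 3 groups, which overlapped their neighbours in order.

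Between tissues Atf3 and Hsp70 had opposite signs, and neither was called. Atf3 was higher in spleen than in lymph node of the same genotype, with no overlap, by 0.73 ± 0.27 averaged over genotypes (1.66-fold, unadjusted p = 0.0300, limma adjusted p = 0.467), and 6.44% of all tested probe sets were higher in spleen in this way. Hsp70 was lower in spleen. Hspa1a differed by -0.96 ± 0.66 and Hspa1b by -1.01 ± 0.68, -0.91 ± 0.78 and -0.97 ± 0.80 on its 3 probe sets (adjusted p from 0.704 to 0.772). Set side by side within genotype and letter, spleen was below lymph node in 4 of 4 pairs for each of these probe sets, where 8.10% of all tested probe sets were. The size rested on wild-type spleen: without its array A the differences were -0.39 for Hspa1a and -0.30, -0.21 and -0.23 for Hspa1b, and without its array B they were -1.54 and -1.72, -1.62 and -1.71. For Hspa1a these pairs were 1251 against 3372, 4440.3 against 6531, 1218.5 against 3343 and 5943 against 7903.

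Egr1 was lower in spleen as well, by -0.71 ± 0.47 (limma adjusted p = 0.699), and also in 4 of 4 pairs; the value was -1.18 without array A and -0.23 without array B of knockout spleen. Ier2 differed by -0.58 ± 0.45 (adjusted p = 0.748), lower in 3 of 4 pairs, with -0.90 and -0.25 without the same arrays. Fos and Fosb were level between tissues, at -0.02 ± 0.29 and 0.02 ± 0.27. By limma 0 of 26480 probe sets were called between tissues, and 2540 (9.59%) had an unadjusted p under 0.05, Atf3 being the 1 member probe set among them in this fit, which has no block.

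Other early response genes were taken from a list of 28, of which 26 were tested through the probe set with the highest mean signal. None was called in any comparison. Averaged over tissues their median knockout minus wild-type difference was -0.22, beside -0.07 over all probe sets tested, with 7 of 26 above 0, where 42.5% of all probe sets were. Knockout arrays lay below wild-type arrays without overlap in both tissues for 9 of 26: the nuclear receptor genes Nr4a1, Nr4a2 and Nr4a3, the RNA-binding protein gene Zfp36, which promotes decay of cytokine mRNAs, the antiproliferative gene Btg2, the Erk phosphatase gene Dusp5, and Ier5, Klf6 and Maff. Of all probe sets tested 5.0% did so, and 5.68% of genes with 1 probe set each. The count was 7 of 26 without median scaling, where 3.87% of all probe sets did so, and 5 of 26 with quantile normalization, against 4.35%. Nr4a2, Nr4a3, Ier5 and Maff were among them under all 3 scalings. Nr4a1, Btg2 and Dusp5 had their lowest signals on the 2 knockout B arrays, those with low Xist.

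Nr4a3 had the smallest unadjusted p of the genes with lower knockout signals, with a difference of -0.67 ± 0.25 (limma adjusted p = 0.647). Its signals were 3041 and 3472 in knockout spleen, against 5311 and 6629 in wild-type spleen, and 3494 and 4559 in knockout lymph node, against 4764 and 6499.5 in wild-type lymph node. Socs3, a feedback inhibitor of cytokine receptors, was the 1 gene of the list above wild-type without overlap in both tissues, where 2.90% of all probe sets were, by 1.19 ± 0.44 (adjusted p = 0.640). It had 539 and 227 in knockout spleen, against 88.7 and 192 in wild-type spleen, and 726 and 413 in knockout lymph node, against 371 and 212 in wild-type lymph node. Myc, a growth factor-induced regulator of cell growth, was higher by 1.03 ± 0.41 (adjusted p = 0.670), and Dusp6, an Erk phosphatase, by 1.86 ± 0.88 (adjusted p = 0.723), both with overlapping genotypes in spleen. Dusp6 had 9.37 on array B of wild-type lymph node, under the floor of 9.58 to which it was raised. Its difference was 2.81 in lymph node and 0.91 in spleen. The macrophage marker list, given above, had a median difference of 2.13 over its 9 tested members. Cell cycle genes had a median of 1.53 over 6 tested, and neutrophil and monocyte markers 1.27 over 2. Plasma cell markers had 1.09 over 4, and the 1 platelet marker tested was at 3.28. T cell, NK cell, erythroid, and stromal and endothelial markers had medians from 0.25 to 0.43. Dendritic cell, B cell and epithelial markers had medians of -0.10, -0.04 and -0.86. The part of any of these in the Socs3, Myc and Dusp6 values was not tested.

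Other heat shock and chaperone genes were read from a list of 18. Of 16 genes tested, 0 were called and 10 were above 0, with a median averaged knockout difference of 0.04. Those with the smallest unadjusted p were Stip1, a co-chaperone of Hsp70 and Hsp90 (-0.40 ± 0.31), Hspa4 (-0.29 ± 0.24), the mitochondrial chaperonin Hspd1 (0.29 ± 0.27) and the mitochondrial Hsp70 Hspa9 (0.29 ± 0.36), with adjusted p from 0.834 to 0.912.

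Between arrays A and B, 4 of the 16 were higher on B in all 4 groups, where 12.5% of all probe sets were. These were Hsph1, a nucleotide exchange factor of Hsp70, the J-domain co-chaperones Dnaja1 and Dnajb1, and the inducible Hsp90 gene Hsp90aa1. Hsph1 had 2845 and 3159 on arrays A and B of knockout spleen, against 1467 and 3688 in wild-type spleen, and 2456 and 3829.9 in knockout lymph node, against 1975 and 4541 in wild-type lymph node. Its mean B minus A difference was 0.83, and those of Hsp90aa1, Dnajb1 and Dnaja1 were 0.46, 0.42 and 0.39, all below those of Hspa1a and Hspa1b. The constitutive Hspa8 showed a mean of 0.02 and Hspa9 was lower on B in all 4 groups, by a mean of -0.61.

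**Figure D4:**
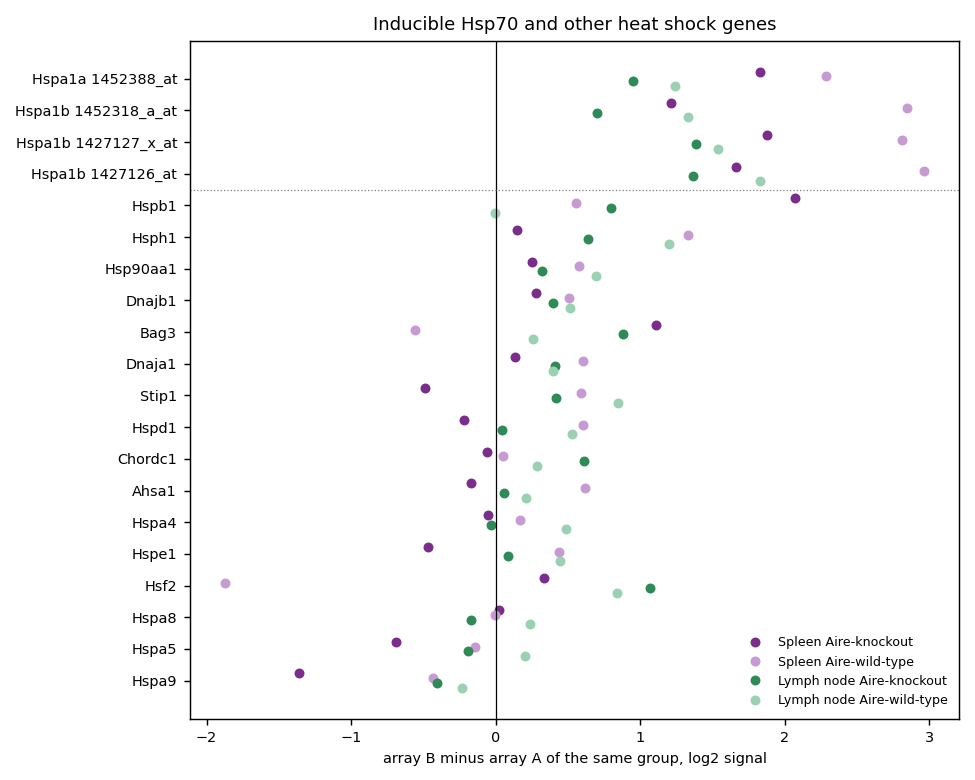
Array B minus array A in log2 signal within each of the 4 groups (coloured points), for the 4 Hsp70 probe sets above the dotted line and 16 other heat shock genes below it. All 16 Hsp70 points lie above 0, between 0.70 and 2.97, whereas the other genes lie on both sides.

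The kinases and transcription factors upstream of immediate early genes gave 14 tested genes of 16 listed, and none was called. Their median averaged difference was -0.07, equal to that of all probe sets tested. The smallest unadjusted p among them belonged to Rps6ka5, Map2k4, Mapk9 and Mapk14, with adjusted p of 0.768 or more.

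Genes outside the lists were ranked by how closely their centred log2 signals followed Fos over the 8 arrays. Of 11436 genes compared, Puf60, Zcrb1, Wnt11, Tuba4a and Dad1 were nearest, at root mean square differences between 0.11 and 0.13, beside a median of 0.53 over all. Fosb was nearer to Fos than any of them, at 0.10. For Hspa1b (_a_at) the nearest were Fbxl2 at 0.22 and Psd3, Atp6v0e2, Aig1 and Serpind1 at 0.42 to 0.48, beside a median of 1.12. Fbxl2 had signals from 9.23 to 81.7, so its lowest array lay under the floor of 9.58 to which low signals were raised.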

How the data were processed

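The authors deposited MAS5 signal intensities, per the submitters' processing notes, with a 2% trimmed mean of 250 on every array; no MAS5 version is stated. Each array was scaled to a common median, signals under the 20th percentile (9.58) were raised to it, and log2 was taken. Limma 3.58.1 in R 4.3.3 fitted the 4 group means to all 8 arrays (4 residual degrees of freedom) over 26480 probe sets, with Benjamini-Hochberg adjustment over all of them; the fit was tested on simulated data. Members and gene lists were chosen with earlier results of these data known. Listed genes were read through the probe set with the highest mean signal, and were not tested where that probe set failed the filter. Of 154 listed genes 14 had no match and are not analysed here. The named genes are all members, the 4 genes of each list with the smallest unadjusted p for the tissue-averaged knockout effect, and the 5 of most similar pattern; list genes named for separation of genotypes or for the order of A and B were chosen after their values were seen. Nothing in the labels ties the arrays to different animals. Alternatives changed the floor, filter, scaling, prior, block and arrays used. The number of arrays limits the precision. Among the control probe sets, the 3′ over 5′ signal ratio of Gapdh ran from 2.99 to 4.53 over the 8 arrays. That of b-actin ran from 1.01 to 1.13. The part of RNA quality in the differences between arrays was not tested.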

Additional observations from a re-analysis of the deposited data

How the results depend on the processing

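No member was called under the alternatives run: 0 of 1040 values passed over the changes of floor, scaling, letter block and arrays (lowest adjusted p 0.245 among the 29 differences reported), and 0 of 336 over the changes of filter, probe sets, prior and block, where the lowest adjusted p was 0.135, for Atf3 in spleen minus lymph node with the trended robust prior. Probe sets called averaged over tissues numbered 3; they numbered 5 without a floor, 5 with a floor at the 40th percentile, 6 with the floor as pseudocount, 9 with the filter on 4 arrays, 0 with 1 probe set per gene and 11 with a trended robust prior. In spleen the count of 2 became 4 with the pseudocount, 5 with the filter on 4 arrays, 0 with 1 probe set per gene, 4 with the trended robust prior and 0 from the 4 spleen arrays alone. The lymph node count of 3 became 0 with 1 probe set per gene, and the spleen minus lymph node count of 0 became 65 with the trended robust prior. Leaving out 1 array at a time gave 2 to 7 calls averaged over tissues (7 without array B of knockout spleen), 1 to 3 in lymph node (1 without either knockout array) and 0 to 2 between tissues (2 without array B of wild-type spleen). The 2 further settings, chosen after seeing the data, left out both knockout A arrays or both knockout B arrays: spleen then had 0 or 4 calls, lymph node 0 in each case, and the average 2 or 6.

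Signs of small member differences depended on single arrays and on scaling; the cause was not tested. Averaged over tissues, quantile normalization gave 0.054 and 0.016 for the first and second Jun probe sets and 0.027 for Hspa1b (_x_at), and no median scaling gave 0.0047 for the first Jun probe set and 0.021 for Hspa1b (_x_at). Without both knockout A arrays the averaged values were -0.43 for Egr1, -0.43 for Ier2, 0.53 for Hspa1a, 0.76 for Hspa1b (_x_at) and 0.66 for Hspa1b (_at), and Egr1 in spleen was -0.44. Without both knockout B arrays they were 0.062 for Fos, 0.048 for the second Jun probe set and -0.32 for Hspa1b (_a_at). With 1 array left out at a time the averaged difference ranged from -0.15 to 0.011 and from -0.32 to 0.10 for the Jun probe sets, from -0.17 to 0.78 for Egr1, from -0.14 to 0.52 for Ier2, from -0.73 to 0.41 for Hspa1a, and for Hspa1b from -0.55 to 0.87 (_a_at), -0.76 to 0.65 (_x_at) and -0.84 to 0.64 (_at); Egr1 in spleen ranged from -0.44 to 1.45. The labels do not say that arrays of one letter share an animal, and the correlations of A minus B differences between groups ran from 0.05 to 0.29, not all above 0.1. Xist and Eif2s3y were nonetheless alike in spleen and lymph node of the same genotype and letter, a hint from the data that these arrays may be paired across tissues. In that case the SEs, intervals and p-values of the tissue-averaged knockout differences may be too small. With the letter as a replicate block the calls were 2 in spleen, 3 in lymph node, 3 averaged, 0 for the difference between tissues and 0 between tissues, and 0 and 0 for these last with genotype and letter as a block. In that replicate block the unadjusted p for spleen minus lymph node was 0.0220, 0.0282, 0.0317 and 0.0339 for the 4 Hsp70 probe sets, 0.0340 for Atf3 and 0.0495 for Egr1, against 0.183 to 0.278 for Hsp70 and 0.178 for Egr1 without it; adjusted p was 0.360 or more. With 2 arrays a group, intervals of the Hsp70 genes were wide enough to include a 2-fold difference.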

Other observations

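Egr2 and Egr3, the zinc finger relatives of Egr1 that act in lymphocyte activation, had averaged knockout minus wild-type differences of 0.74 ± 0.67 and 0.36 ± 0.61 (limma adjusted p = 0.862 and 0.943). Between tissues they differed by -0.91 ± 0.67 and -0.63 ± 0.61 (adjusted p = 0.732 and 0.803). All 4 values have the sign of those of Egr1, and none was called. The knockout sign in spleen rested on array A. Egr2 had 3015 and 477 on arrays A and B of knockout spleen, against 550 and 604 in wild-type spleen. Egr3 had 476 and 89.9, against 114 and 129. In lymph node alone the knockout difference was -0.05 for Egr3, against 0.10 for Egr1. The 2 genes were picked after their values were seen.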
